A study of Homo sapiens with 8 samples.

Results

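The collagen gene family was examined across 8 microarrays of SAS cells, a human tongue squamous carcinoma cell line, after transfection of microRNA (miRNA) mimics that the study had linked to survival under cisplatin (CDDP). Members were all gene probes on the array whose gene name is COL, a number, A and a number, which gave 44 collagen genes on 64 probes out of 43317 gene names on 58201 probes. The rule used names alone and no measured value. The cells of all groups were the GFP-carrying SAS control line (SAS/GFP in the study's methods, SAS in the labels), grown in medium with puromycin and taken through transfection at 25 nM. The groups were a negative control miRNA (NC), miR-629-3p, miR-874-3p and miR-210-3p, with 2 arrays each. Total RNA was taken after 48 h according to the labels, while the study's methods give a shorter interval, and no cisplatin treatment is named for these samples. Nothing states whether the 2 arrays of a group came from separate cultures, so p-values measure only the spread between these arrays, which may be technical, and a single line was used.

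Collagens are triple-helical proteins built from 3 alpha chains, each chain being the product of its own gene. Fibril-forming collagens make the ropes of connective tissue, type IV collagen makes the sheet of basement membranes on which epithelia rest, and fibril-associated and transmembrane collagens link these to other matrix or to cells. Squamous epithelial cells are known for making basement membrane and anchoring collagens (types IV, VII, XVII and XVIII), whereas the interstitial types I and III come mainly from fibroblasts. A miRNA pairs with messages mainly through its seed, bases 2 to 8 from its 5′ end, and usually lowers their level.

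The mature sequences of the 3 mimics named in the labels are shown because each comparison is between cells given these molecules or NC. They are RefSeq entries on GRCh38.p14, printed 5′ to 3′ with the seed in capitals, and the 3 seeds are all distinct.
miR-629-3p: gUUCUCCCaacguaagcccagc
miR-210-3p: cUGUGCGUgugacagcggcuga
miR-874-3p: cUGCCCUGgcccgagggaccga
The complement of each seed was also looked for in the array probes themselves. It was in 0 of the 64 collagen probes for each mimic, against 0.747% of all 58201 probes for miR-629-3p, 0.131% for miR-210-3p and 0.387% for miR-874-3p. This says only that these letters are not in the short stretches the probes cover.

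The type IV pair COL4A1 and COL4A2 carried the most separate responses below, and their starts lie back to back. On chromosome 13 of GRCh38.p14, COL4A1 starts at 110307157 on the minus strand and COL4A2 at 110307284 on the plus strand, 127 bases apart, so that transcription runs outward from a shared stretch. That stretch is shown on the plus strand at chr13:110307157-110307284, from RefSeq, with a CCAAT box (CCAAT) and a GC box (GGGCGG) in capitals.
COL4A1 to COL4A2: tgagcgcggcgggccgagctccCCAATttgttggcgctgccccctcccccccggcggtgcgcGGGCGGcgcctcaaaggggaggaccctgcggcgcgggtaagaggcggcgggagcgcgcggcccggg
Both motifs were searched on both strands, did not overlap each other, and were each found 1 time. In stretches of the same 128 bases ending at the start of each of 35116 RefSeq genes, CCAAT was in 21.2% and GGGCGG in 34.8%, so neither match is unusual. The other type IV pairs are arranged the same way, COL4A3 with COL4A4 at 419 bases and COL4A5 with COL4A6 at 380 bases between starts.

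Signal is given as log2 of the array's processed signal minus the 75th percentile of that array's gene probes, and a probe counts as above background when the scanner software flagged it well above background. Between 24559 and 29008 probes were above background on an array, fewest with NC and most with miR-629-3p, and no spot was saturated. The dimmest signal above background was lowest with miR-629-3p, at -3.74 and -3.59, and highest with NC, at -2.84 and -2.82. A dim gene can thus be above background with a mimic and not with NC at a like level. All 10 squamous epithelial markers were above background on all 8 arrays, with a summed log2 signal of 9.12 to 9.13 with miR-629-3p, 8.93 on both arrays with miR-210-3p, 9.23 to 9.40 with miR-874-3p and 9.34 to 9.42 with NC. Both row 1 groups thus lay below the others, and the part of this in the collagen differences was not tested. Of 10 fibroblast markers, PDGFRB, FAP, DPT, FBLN1 and VIM were above background on all 8 arrays, THY1 on 1, and PDGFRA, DCN, LUM and POSTN on none. Their summed log2 signal was 4.98 to 5.01 with miR-629-3p, 6.21 to 6.26 with miR-210-3p, 5.21 to 5.60 with miR-874-3p and 5.44 to 5.64 with NC, and its part in the collagen differences was not tested. This sum mostly follows 1 gene, VIM, which ranged from 4.07 to 5.95 over the arrays. FBLN1 stayed between 3.51 and 3.76, and PDGFRB, FAP and DPT were at 0.065 or lower. Row 1 of the single slide held the miR-210-3p and miR-629-3p arrays, and row 2 those of NC and miR-874-3p. For miR-629-3p and miR-210-3p against NC, slide row and mimic therefore cannot be told apart, whereas miR-629-3p against miR-210-3p and miR-874-3p against NC were each compared within a row. The miR-629-3p and miR-874-3p arrays lay in slide columns 1 and 2, and the miR-210-3p and NC arrays in columns 3 and 4. In these within-row comparisons, slide column and mimic therefore cannot be told apart.

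SAS cells carried signal for 27 of the 44 collagen genes, the number with a probe measured on all 8 arrays and above background in both members of 1 or more pairs of arrays, and only these were tested. Of them, 19 were above background on all 8 arrays, and these spanned the epithelial collagens and several others: COL4A1, COL4A2, COL4A5 and COL4A6 (basement membrane network), COL7A1 (anchoring fibril), COL17A1 and COL13A1 (transmembrane), COL18A1 (multiplexin), COL5A1, COL5A2, COL11A2 and COL27A1 (fibril-forming), COL6A1 and COL6A2 (beaded filament), COL8A1 and COL10A1 (short-chain network), and COL9A3, COL12A1 and COL16A1 (fibril-associated). The other 8 tested genes were COL1A1, COL24A1, COL4A4, COL9A1, COL9A2, COL14A1, COL20A1 and COL15A1. Of these, COL24A1, COL4A4 and COL15A1 passed through 1 group only.

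**Figure D1:**
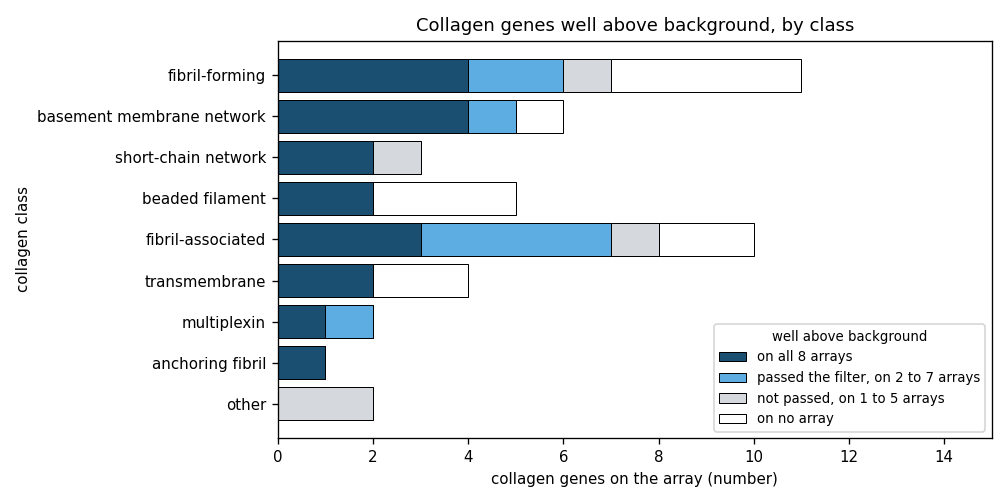
Number of collagen genes on the array (horizontal axis) in each collagen class (vertical axis), split by how many of the 8 arrays had the gene's probe well above background. Of the 6 basement membrane network genes 4 were on all 8 arrays, whereas 4 of 11 fibril-forming and 3 of 5 beaded filament genes were on no array.

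In 12 genes no probe was above background on any array: COL1A2, COL2A1, COL3A1 and COL11A1 among the fibril-forming collagens, COL4A3, COL6A3, COL6A5 and COL6A6, and COL21A1, COL22A1, COL23A1 and COL25A1. COL1A2 and COL3A1, which make interstitial collagen I (with COL1A1) and collagen III, were thus not measurable in any group. The 5 remaining genes were above background on too few arrays to be tested: COL5A3 on the miR-874-3p replicate 1 array, COL8A2 on the miR-210-3p replicate 2 array, COL19A1 on the NC replicate 2 array, and COL26A1 on miR-629-3p replicate 1 and miR-210-3p replicate 2. COL28A1 was above background on 5 arrays, all 4 of miR-629-3p and miR-210-3p and miR-874-3p replicate 1, but its spot carried an outlier flag on miR-874-3p replicate 2 and so had no value there. Its log2 signal lay between -3.11 and -2.56 on the other arrays. The highest value was that of NC replicate 1, which was not above background, so these flags do not show a group difference. For COL19A1 the NC replicate 2 value of -1.02 stood far above the -4.98 of NC replicate 1 on the same probe, and the gene's other 2 probes were above background on no array.

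**Figure D2:**
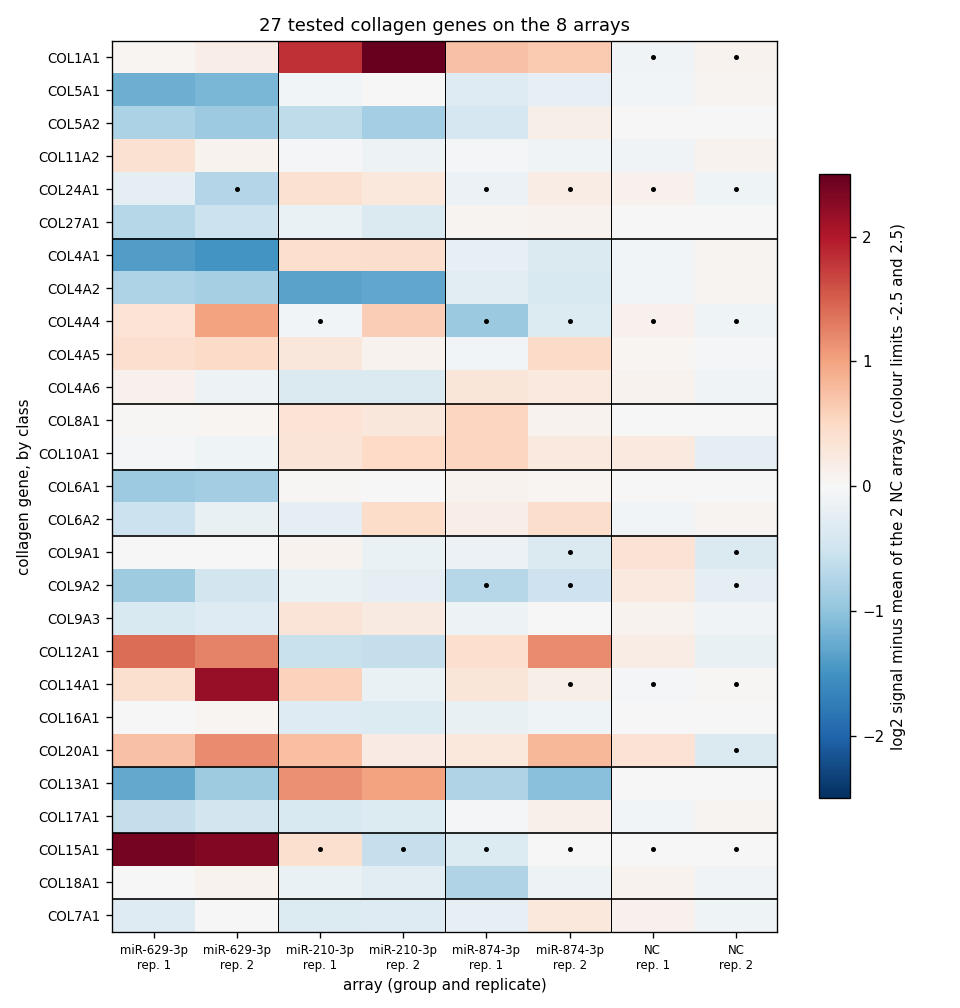
Log2 signal of the 27 tested collagen genes (vertical axis, with lines between classes) on each array (horizontal axis), minus the mean of the 2 NC arrays. Black dots mark arrays on which the probe was not above background. The miR-629-3p columns are low for COL4A1, COL5A1, COL13A1 and COL6A1 and high for COL12A1 and COL15A1, and the miR-210-3p columns are low for COL4A2 and high for COL13A1 and COL1A1.

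An F test across the 4 groups asked which collagens differed anywhere. It called 13 of the 27 tested genes at an adjusted p under 0.05 (limma, adjusted over all 21283 genes tested), or 48.1%, beside 25.2% of all genes tested. These were COL5A1, COL5A2, COL27A1, COL4A1, COL4A2, COL4A6, COL6A1, COL9A3, COL12A1, COL16A1, COL13A1, COL17A1 and COL15A1. The lowest adjusted p was that of COL4A1, at 0.00232. COL4A6 was called only in this test and in no pairwise comparison. COL7A1 (adjusted p = 0.418) and COL18A1 (0.279), both above background on all arrays, were not called. COL15A1 passed the filter through 1 group alone, so the filter favoured its call. The F test count was 5 without either miR-629-3p array, 8 without either miR-210-3p array and between 9 and 15 without 1 of the others.

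The comparison of NC with miR-629-3p asked which transcripts change in cells given the mimic on which the study centred. With miR-629-3p, 8 collagen genes were lower and 2 were higher than with NC. The lower genes were the basement membrane pair COL4A1 and COL4A2, the fibril-forming COL5A1, COL5A2 and COL27A1, the beaded-filament COL6A1, and the transmembrane COL13A1 and COL17A1, with log2 differences from -1.44 to -0.53. The higher genes were COL12A1 and COL15A1. The lower genes were 29.6% of the 27 tested collagens, beside a background of 7.47% of all genes tested, and the higher genes 7.41%, beside 9.28%. COL15A1 passed the filter through miR-629-3p alone, and without it 1 collagen was higher. The median log2 difference was -0.07 over the tested collagens and 0.02 over all genes tested. With a 2-fold change and a limma p under 0.05 before adjustment, 2 collagens were higher and 3 lower, beside 5.26% of all genes. These cutoffs are those of the study's lists of up- and downregulated genes, but its methods name another test. The test that the methods name for pairs of groups, run on the same values, called 0 collagens and 0 of all genes after adjustment.

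COL4A1 encodes the alpha 1 chain that with alpha 2 forms the most widespread type IV collagen. Its log2 signal was 1.74 and 1.88 with NC, 0.41 and 0.33 with miR-629-3p, 1.61 and 1.45 with miR-874-3p, and 2.23 and 2.26 with miR-210-3p. The miR-629-3p arrays were lowest and the miR-210-3p arrays highest, with no overlap between groups. With miR-629-3p COL4A1 was 2.72-fold lower than with NC (log2 difference -1.44, SE 0.09, adjusted p = 0.00232). It was also 3.66-fold lower than with miR-210-3p in the same slide row (log2 difference -1.87, SE 0.09, adjusted p = 0.00125). The difference between miR-210-3p and NC was 0.43 (95% interval 0.20 to 0.65, adjusted p = 0.0552) and missed the threshold, as did miR-874-3p at -0.28 (adjusted p = 0.231).

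COL4A2 encodes the partner chain. Its log2 signal was 6.07 and 6.21 with NC, 5.36 and 5.32 with miR-629-3p, 5.87 and 5.77 with miR-874-3p, and 4.80 and 4.85 with miR-210-3p. Here the miR-210-3p arrays were lowest, and the order of the groups differed from that of COL4A1. COL4A2 was 1.74-fold lower with miR-629-3p than in NC (log2 difference -0.80, SE 0.08, adjusted p = 0.00628). With miR-210-3p it was 2.49-fold lower than with NC (log2 difference -1.32, SE 0.08, adjusted p = 0.00573). Set directly against each other, miR-629-3p was 0.52 above miR-210-3p for COL4A2 (SE 0.08, adjusted p = 0.0123) and 1.87 below it for COL4A1, so the 2 chains differed in opposite directions between these mimics although their starts are only 127 bases apart. The COL4A2 difference between the mimics lost its call without any 1 of the 4 arrays of these groups (adjusted p up to 0.0795), and the COL4A1 difference kept it without any 1 of the 8. All 4 row 1 arrays lay below all 4 row 2 arrays for COL4A2.

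The other type IV chains showed no call in these comparisons. COL4A5, which pairs with COL4A6 in some epithelial basement membranes, had log2 differences from NC of 0.45 (adjusted p = 0.153) with miR-629-3p, 0.21 (0.617) with miR-874-3p and 0.19 (0.577) with miR-210-3p. COL4A6 differed from NC by -0.01 with miR-629-3p (adjusted p = 0.957), by -0.37 with miR-210-3p (0.0947) and by 0.27 with miR-874-3p (0.281). COL4A4 was dim, at -4.54 to -2.62 over the arrays, and was above background on 3 of them, both of miR-629-3p and miR-210-3p replicate 2.

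**Figure D3:**
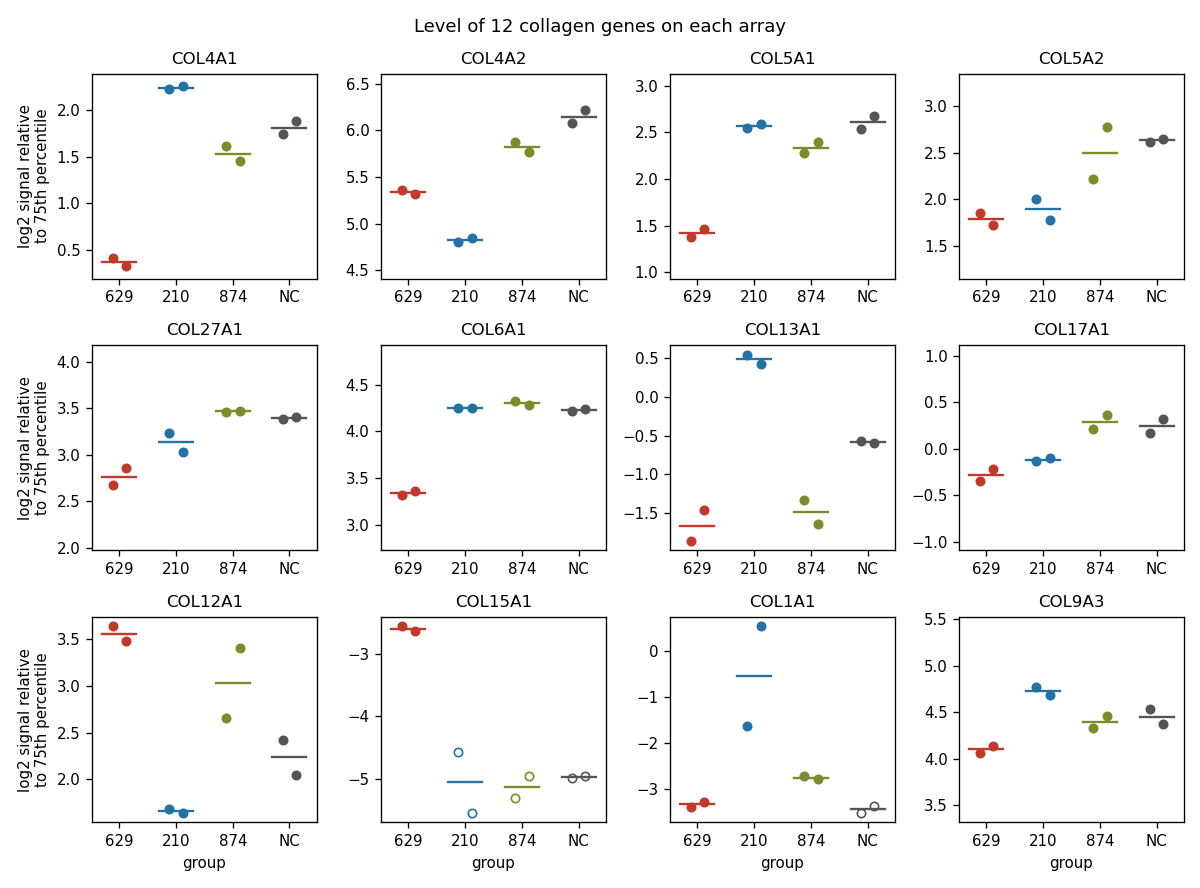
Log2 signal of 12 collagen genes (vertical axes, relative to each array's 75th percentile) by group (horizontal axes: the 3 mimics, then NC). Each point is 1 array, open where the probe was not above background, and the line is the mean of the 2 arrays. COL4A1 is lowest with miR-629-3p, at 0.41 and 0.33, whereas COL4A2 is lowest with miR-210-3p, at 4.80 and 4.85.

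COL6A1 encodes a chain of the beaded filaments that lie beside basement membranes. Its log2 signal was 3.32 and 3.36 with miR-629-3p, while the other 6 arrays lay between 4.22 and 4.32. COL6A1 was 1.85-fold lower with miR-629-3p than in NC (log2 difference -0.89, SE 0.06, adjusted p = 0.00326) and 1.88-fold lower than with miR-210-3p (-0.91, SE 0.06, adjusted p = 0.00238). The difference from NC was 0.02 with miR-210-3p (95% interval -0.14 to 0.18) and 0.07 with miR-874-3p (-0.09 to 0.23). Its partner chain COL6A2 was dimmer, and its difference of -0.36 with miR-629-3p (95% interval -1.01 to 0.29, adjusted p = 0.388) was not called.

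COL5A1 and COL5A2 encode the chains of type V collagen, a regulator of fibril diameter. COL5A1 read 2.54 and 2.68 with NC, 1.38 and 1.46 with miR-629-3p, 2.28 and 2.40 with miR-874-3p, and 2.54 and 2.59 with miR-210-3p. It was thus 2.28-fold lower with miR-629-3p than in NC (log2 difference -1.19, SE 0.09, adjusted p = 0.00336) and 2.21-fold lower than with miR-210-3p (-1.15, SE 0.09, adjusted p = 0.00271). COL5A2 read 2.62 and 2.65 with NC, 1.85 and 1.72 with miR-629-3p, 2.21 and 2.78 with miR-874-3p, and 2.01 and 1.78 with miR-210-3p. Both row 1 groups were low for COL5A2: miR-629-3p was 0.85 below NC (log2 difference -0.85, SE 0.19, adjusted p = 0.0394), and miR-210-3p differed from NC by -0.74 (adjusted p = 0.0842). The 2 mimics differed from each other by -0.11 (95% interval -0.59 to 0.37, adjusted p = 0.737).

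COL27A1, a fibril-forming collagen best known from cartilage, and COL17A1, the hemidesmosomal collagen that ties basal keratinocytes to the basement membrane, had the same layout. COL27A1 was 0.63 lower with miR-629-3p than in NC on the log2 scale (log2 difference -0.63, SE 0.10, adjusted p = 0.0163), with arrays at 2.67 and 2.85 against 3.39 and 3.40. COL17A1 read 0.17 and 0.32 with NC, -0.35 and -0.22 with miR-629-3p, 0.21 and 0.37 with miR-874-3p, and -0.13 and -0.10 with miR-210-3p (miR-629-3p against NC -0.53, SE 0.10, adjusted p = 0.0221, or -0.29 after normexp background correction). Within row 1, miR-629-3p differed from miR-210-3p by -0.37 for COL27A1 (adjusted p = 0.0514) and by -0.17 for COL17A1 (adjusted p = 0.27), neither of which was called. For COL5A2, COL27A1, COL17A1 and COL4A2 all 4 row 1 arrays lay below all 4 row 2 arrays. That held for 14.8% of the tested collagens and 4.75% of all genes tested, and for these genes mimic and slide row cannot be told apart in the comparison with NC.

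COL13A1 encodes a transmembrane collagen found at cell-matrix contacts, and it was the only collagen called in both directions against NC. Other collagens, COL4A1 and COL12A1 among them, also had miR-629-3p and miR-210-3p on opposite sides of NC without overlap. The log2 signal of COL13A1 was -0.58 and -0.60 with NC, -1.87 and -1.47 with miR-629-3p, -1.34 and -1.64 with miR-874-3p, and 0.55 and 0.43 with miR-210-3p. The miR-210-3p arrays were above NC and the miR-629-3p and miR-874-3p arrays below it, the latter pair overlapping each other. COL13A1 was 2.12-fold lower with miR-629-3p than in NC (log2 difference -1.08, SE 0.16, adjusted p = 0.0147) and 2.10-fold higher with miR-210-3p (1.07, SE 0.16, adjusted p = 0.0275). Within row 1 the mimics differed 4.46-fold (log2 difference -2.16, SE 0.16, adjusted p = 0.00284). After normexp background correction these 3 differences were -0.39, 0.62 and -1.01, all still called. Within row 2, miR-874-3p differed from NC by -0.90 (95% interval -1.31 to -0.50), with an adjusted p of 0.0974 that missed the threshold.

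COL12A1, a fibril-associated collagen with a large non-collagenous part, was the clearest collagen higher with miR-629-3p. It read 2.42 and 2.05 with NC, 3.64 and 3.48 with miR-629-3p, 2.65 and 3.41 with miR-874-3p, and 1.68 and 1.64 with miR-210-3p. It was 2.51-fold higher with miR-629-3p than with NC (log2 difference 1.33, SE 0.26, adjusted p = 0.0268) and 3.74-fold higher than with miR-210-3p (1.90, SE 0.26, adjusted p = 0.00875). The miR-874-3p arrays were also above NC, by 0.80 on average, but they were spread widely (3.03 ± 0.53, SD, n = 2) and the difference was not called (adjusted p = 0.232).

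COL15A1, a multiplexin of basement membrane zones, was above background on the 2 miR-629-3p arrays alone, at -2.57 and -2.64, and between -5.54 and -4.57 on the other 6. The fitted log2 difference from NC was 2.36 (adjusted p = 0.0111). COL15A1 passed the filter only through the group in which it was high, so the filter favoured its calls and they add no support. Against the dimmest signal above background on the NC arrays, it was at least 1.17-fold higher with miR-629-3p, and at least 1.74-fold higher than with miR-210-3p. After normexp background correction the fitted differences were 0.29 and 0.22. Over the 22302 probes never above background, the median log2 difference of miR-629-3p from NC was -0.75, which bears on any value this dim. The second multiplexin, COL18A1, was among the well-measured genes and differed from NC by 0.03 (95% interval -0.48 to 0.54).

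Of the 10 calls against NC, 9 were in genes above background on all 8 arrays. COL4A1, COL4A2, COL5A1 and COL6A1 kept their calls when any 1 of the 8 arrays was left out (highest adjusted p 0.0493). The count of called collagens was 4 without miR-629-3p replicate 1, 5 without miR-629-3p replicate 2, 6 without NC replicate 1, 4 without NC replicate 2, 7 without either miR-210-3p array and 11 without either miR-874-3p array. COL5A2 and COL12A1 lost the call without any 1 array of miR-629-3p, miR-210-3p or NC (adjusted p up to 0.161 and 0.133). COL17A1 lost it without any of these but NC replicate 1 (up to 0.122), COL27A1 without any 1 array of miR-629-3p or NC (up to 0.0932), COL13A1 without miR-629-3p replicate 1 or either NC array (up to 0.0714), and COL15A1 without either miR-629-3p array or NC replicate 2 (up to 0.0739).

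**Figure D4:**
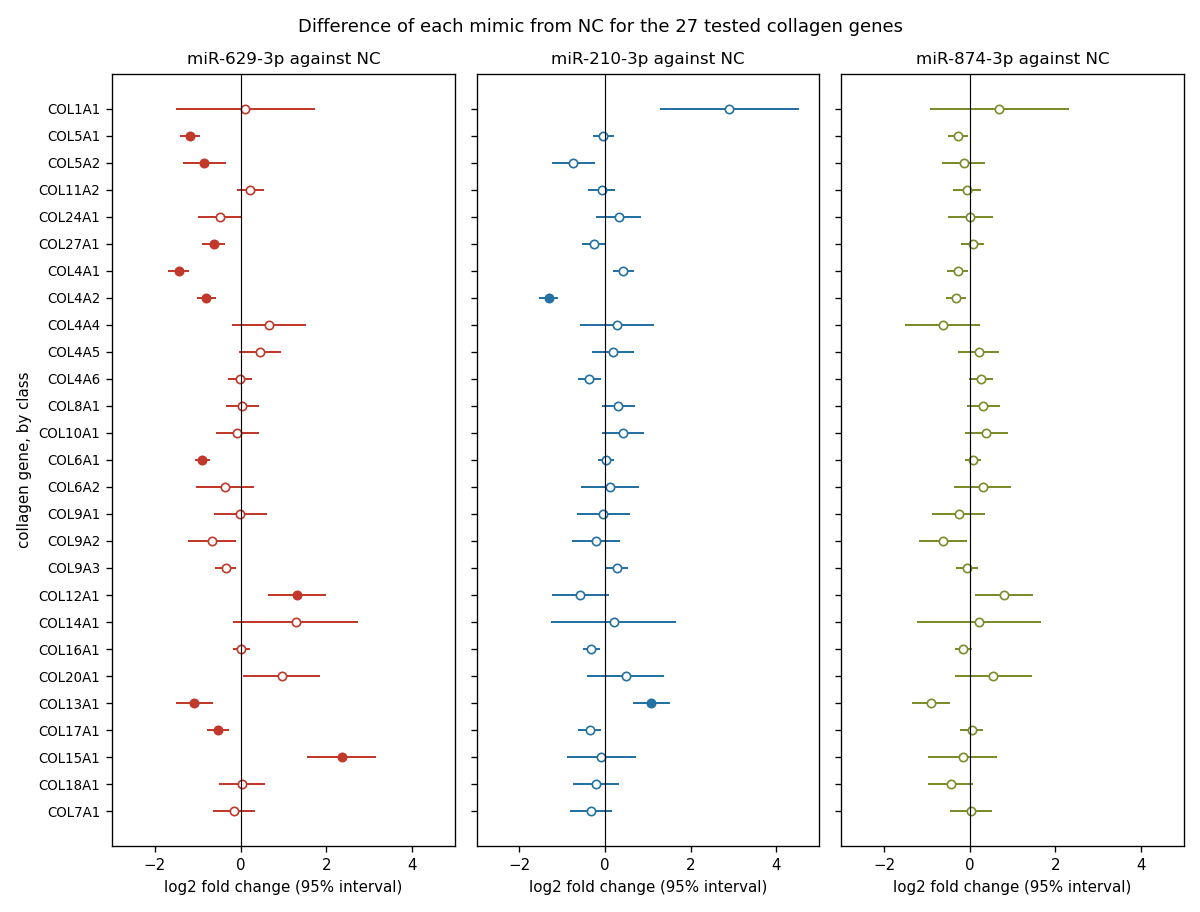
Log2 difference from NC (horizontal axes, with 95% intervals) of the 27 tested collagen genes (vertical axis, by class) for each mimic. Filled points were called at an adjusted p under 0.05. There are 10 filled points for miR-629-3p, 2 for miR-210-3p and 0 for miR-874-3p.

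With miR-210-3p, 1 collagen was higher and 1 lower than with NC, COL13A1 and COL4A2 as given above. Each is 3.70% of the tested collagens, beside 3.85% of all genes higher and 2.2% lower. With a 2-fold change and p under 0.05 before adjustment the collagens were 2 higher and 1 lower, beside 3.14% of all genes. The methods' test called 0 collagens after adjustment, beside 1 of all 21283 genes tested. COL1A1, the alpha 1 chain of collagen I, had the widest gap from NC but no call: it read -1.63 and 0.53 with miR-210-3p, -3.40 and -3.28 with miR-629-3p, -2.72 and -2.80 with miR-874-3p, and -3.52 and -3.37 with NC, where it was not above background. Its fitted log2 difference was 2.90 (SE 0.65, adjusted p = 0.0606), and it was at least 4.87-fold higher with miR-210-3p, although the 2 miR-210-3p arrays stood more than 2 apart on the log2 scale. The COL1A1 difference was 3.98 without miR-210-3p replicate 1 and 1.82 without replicate 2. Each of these fits leaves 1 array in the group and so drops the spread between the 2, so neither can test the call. COL16A1, a fibril-associated collagen, differed from NC by -0.33 (SE 0.07, adjusted p = 0.0554) and was called in 8 alternatives. The calls held without any 1 array for COL4A2 (adjusted p up to 0.0486), but COL13A1 lost its call without any 1 array of miR-210-3p or NC (up to 0.15). The count of called collagens was 1 without either NC array and 6 without either miR-874-3p array.

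With miR-874-3p, 0 of the 27 tested collagens were called in limma, beside 0.216% of all genes higher and 0.207% lower. At an unadjusted p under 0.05 there were 7 (25.9%), beside 16.4% of all genes. Of these 0 also reached a 2-fold change, beside 2.02% of all genes for that pair of thresholds. The median log2 difference was 0.02 over the tested collagens. The methods' test also called 0 after adjustment, beside 0 of all 21283 genes tested. The largest fitted differences among well-measured genes were those of COL13A1 and COL12A1 given above, and COL4A2 differed by -0.32 (95% interval -0.53 to -0.12, adjusted p = 0.158).

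Set directly against miR-210-3p in the same slide row, miR-629-3p showed 4 collagens higher and 7 lower. The higher genes were COL4A2, COL12A1, COL16A1 and COL15A1 and made up 14.8% of the tested collagens, beside 9.83% of all genes. The lower genes were COL1A1, COL5A1, COL24A1, COL4A1, COL6A1, COL9A3 and COL13A1 and made up 25.9%, beside 12.7%. COL15A1 passed the filter through miR-629-3p alone and COL24A1 through miR-210-3p alone, each the group in which it was higher, so the filter favoured these calls. Without them 3 genes were higher (11.1%) and 6 lower (22.2%). With a 2-fold change and p under 0.05 before adjustment there were 2 higher and 4 lower, beside 5.61% of all genes. The methods' test called 4 of the 27 collagens after adjustment, beside 1257 of all 21283 genes tested. COL4A1, COL5A1, COL6A1 and COL13A1 were therefore lower with miR-629-3p both against NC and within the row, and COL12A1 higher in both. These comparisons share the miR-629-3p arrays, and in both the slide columns of the groups differed too.

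COL9A3, a chain of the fibril-associated collagen IX, read 4.54 and 4.37 with NC, 4.07 and 4.14 with miR-629-3p, 4.33 and 4.45 with miR-874-3p, and 4.77 and 4.68 with miR-210-3p. The mimics differed by -0.62 (SE 0.09, adjusted p = 0.0105), with the NC arrays in between. COL16A1 was 0.35 higher with miR-629-3p (SE 0.07, adjusted p = 0.0224), at 4.41 and 4.48 against 4.11 and 4.09. COL1A1 was 6.93-fold lower by the fit (log2 difference -2.79, SE 0.65, adjusted p = 0.0329), resting on the 2 unequal miR-210-3p arrays. The difference was -1.71 without miR-210-3p replicate 2 and -0.93 (adjusted p = 0.0558) after normexp background correction, and the call was also lost with signals floored at the dimmest value above background (0.0654), without a detection filter (0.0974) and with only these groups in the fit (0.0832). COL24A1 read -3.31 and -3.81 against -2.71 and -2.82 and was above background on miR-629-3p replicate 1 and both miR-210-3p arrays. Its fitted difference of -0.80 (adjusted p = 0.0409) became -0.06 (adjusted p = 0.459) when signals were floored at the dimmest value above background.

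The within-row count of 11 was 6 without either miR-210-3p array or without miR-629-3p replicate 2, and 5 without miR-629-3p replicate 1. COL4A1, COL5A1, COL6A1 and COL13A1 kept their calls without any 1 of the 8 arrays (highest adjusted p 0.0298). COL9A3, COL16A1 and COL4A2 lost theirs without any 1 array of the 2 groups compared (adjusted p up to 0.0716, 0.12 and 0.0795). COL12A1 lost it without miR-629-3p replicate 1 or either miR-210-3p array (up to 0.0602) and COL15A1 without miR-629-3p replicate 1 (0.0531). COL24A1 lost it without any 1 array of miR-629-3p, miR-210-3p or NC (up to 0.167), and COL1A1 without any 1 array of miR-629-3p or NC (up to 0.134).

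The other collagens above background on all arrays were called in no pairwise comparison. COL7A1, the anchoring fibril that fastens the epidermal basement membrane to the dermis, differed from NC by -0.16 with miR-629-3p, 0.03 with miR-874-3p and -0.32 with miR-210-3p. COL18A1, whose end fragment is endostatin, differed by 0.03, -0.45 and -0.22 in the same order. For COL8A1 and COL10A1, short-chain network collagens, the differences were 0.04, 0.32 and 0.31, and -0.07, 0.39 and 0.41. COL11A2 differed by 0.23, -0.07 and -0.08. The adjusted p of these differences was 0.24 or higher in each case.

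More than 1 probe passed the filter for 6 of the tested genes, and these probes did not all give the same result. For COL12A1 the second probe gave 1.35 with miR-629-3p against NC (SE 0.23, adjusted p over probes 0.0209) and 1.83 against miR-210-3p (0.00825), beside 1.33 and 1.90 for the probe used. For COL5A1 the probe used lies at chr9:137736327-137736386 (hg19, as the array annotation gives all probe positions). The probe at chr9:137734063-137734122 gave -0.35 against NC (adjusted p 0.119) and -0.86 against miR-210-3p (adjusted p 0.0107), and the probe at chr9:137600825-137600884, annotated to a separate transcript, gave 0.04 (0.94) and -0.56 (0.267). COL5A1 was therefore lower against miR-210-3p by 2 of its 3 probes, and against NC by 1. The other probes were dim beside the probe used, which read 1.38 to 2.68 over the arrays. The probe at chr9:137734063-137734122 read -2.91 to -1.93 and was not above background on NC replicate 1. The probe at chr9:137600825-137600884 read -2.19 to -1.09.

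**Figure D5:**
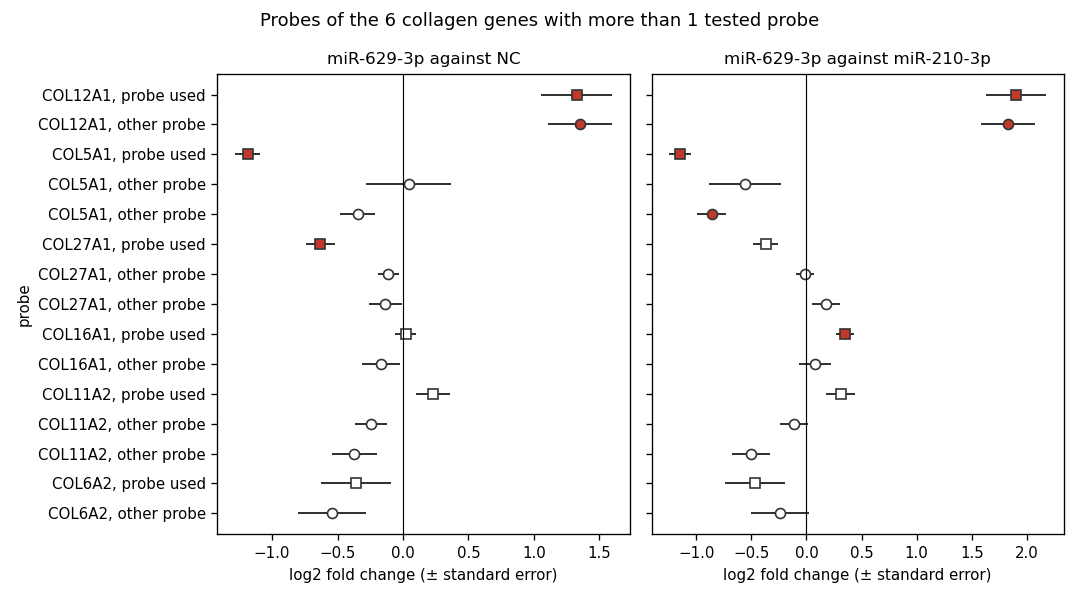
Log2 difference of miR-629-3p from NC (left) and from miR-210-3p (right) with its standard error (horizontal axes) for each tested probe (vertical axis) of the 6 collagen genes with more than 1. Squares are the probes used for the gene, circles the others, and red marks an adjusted p under 0.05 over probes. The 2 COL12A1 probes give 1.33 and 1.35 against NC, whereas the 3 COL5A1 probes give -1.19, -0.35 and 0.04.

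For COL27A1, the 2 other probes gave -0.11 (adjusted p 0.349) and -0.13 (0.478) against NC, so that its difference was seen by the probe at chr9:117073738-117073797 alone. For COL16A1 the other probe gave 0.08 (0.733) against miR-210-3p, where the probe used gave 0.35. The 3 COL11A2 probes gave 0.23, -0.24 and -0.37 against NC and the 2 COL6A2 probes -0.36 and -0.54, and none of these was called. COL4A1, COL4A2, COL6A1 and COL13A1 rest on 1 probe each.

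Collagen chains need a dedicated set of enzymes, chaperones and receptors, and 62 such genes were listed, of which 49 were tested. With miR-629-3p, 8 of them were lower and 2 higher than with NC (16.3% and 4.08%, against the same backgrounds as above), with a median log2 difference of -0.15. Of the 12 tested hydroxylation and glycosylation genes, 5 were lower and 0 higher. These were P4HA1, P4HA2, P3H2, PPIB and COLGALT1, named as a set after their values were seen. P4HA1, the catalytic chain of prolyl 4-hydroxylase, was at 2.82 ± 0.09 (SD, n = 2) against 4.23 ± 0.09 with NC (log2 difference -1.41, SE 0.10, adjusted p = 0.00308). LOX, which crosslinks fibrillar collagen, was at -2.29 ± 0.15 against -1.01 ± 0.33 (-1.28, SE 0.27, adjusted p = 0.0324). P4HB, the other prolyl hydroxylase chain and a general protein disulfide isomerase, differed by 0.02 (adjusted p = 0.891), and SERPINH1, the collagen chaperone HSP47, by -0.28 (adjusted p = 0.132).

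Among the receptors, ITGA10, the alpha chain of a collagen-binding integrin, was higher with miR-629-3p. It was at -0.91 ± 0.08 on arrays above background against -3.98 ± 0.04 with NC, where it was not above background. The fitted log2 difference was 3.08 (SE 0.12, adjusted p = 0.000825), and the bound was at least 3.79-fold. ITGA10 was above background with miR-629-3p and miR-210-3p but not with NC or miR-874-3p, so the filter favoured its calls. ITGA2, the alpha chain of the integrin that binds collagen I on epithelial cells, differed by 0.13 (adjusted p = 0.289), and the collagen receptor kinase DDR1 by -0.13 (adjusted p = 0.693). The remaining called genes of this comparison were PCOLCE2 and HSPG2, lower, and LAMB3, higher. The count of 10 called genes was 3 without either miR-629-3p array, 3 to 4 without an NC array, 6 without either miR-210-3p array and 13 without either miR-874-3p array.

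With miR-210-3p, 3 of the 49 processing and receptor genes were higher than with NC and 0 lower (6.12% and 0%, beside 3.85% and 2.2% of all genes). These were ITGA10 (fitted log2 difference 1.19, SE 0.12, adjusted p = 0.0119), the transglutaminase TGM2 (0.78, SE 0.14, adjusted p = 0.0390) and ITGA2 (0.63, SE 0.07, adjusted p = 0.0155). For ITGA10 the bound was only at least 1.03-fold, and the filter favoured its call as given above. With miR-874-3p 0 were called, and 10 had an unadjusted p under 0.05 (20.4%, beside 16.4% of all genes). The count of 3 for miR-210-3p was 0 to 1 without 1 array of miR-629-3p, miR-210-3p or NC, and 8 without either miR-874-3p array. The count of 0 for miR-874-3p was 2 without miR-874-3p replicate 2. SERPINH1 differed from NC by 0.06 with miR-874-3p and 0.12 with miR-210-3p, and LOX by 0.07 and -0.34, none of them called. Within the slide row, miR-629-3p was lower than miR-210-3p for 17 of the 49 genes (34.7%, beside 12.7% of all genes) and higher for 5 (10.2%, beside 9.83%). P4HA1 was among the lower ones, at -1.42 (SE 0.10, adjusted p = 0.00238), as it was against NC.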

How the data were processed

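Total RNA (100 ng) was labelled with Cy3 and hybridised to 8 Agilent SurePrint G3 Human GE v3 arrays, each with 60901 gene spots, on 1 slide. The deposited scanner files held spot intensities from Agilent Feature Extraction 11.5.1.1 (version from the submitters' processing notes), background-subtracted and detrended by that software. The authors also deposited a log2 table, which lay within 0.05 of the values below on at least 99.957% of probes after 1 offset per array. How that table was centred is not given in the sources used here, and its column medians ran from -3.68 to -3.36.

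Spots flagged as outliers were left out (87 to 346 spots per array), the log2 processed signal was averaged per probe, and each array's 75th percentile over gene probes was subtracted. Probes with a value on all 8 arrays and well above background on both arrays of 1 or more groups were kept, and the brightest probe stood for a gene name, which gave 21283 genes. Differences were fitted with limma 3.58.1 (R 4.3.3; lmFit and eBayes on all 8 arrays, 4 residual and 1.68 prior degrees of freedom, two-sided). A gene was called at a Benjamini-Hochberg adjusted p under 0.05 over all genes tested. The study's threshold for up- and downregulated genes, an unadjusted p under 0.05 and 2-fold, is given beside it with the limma p. Intervals are 95%. A bound of at least N-fold sets the mean of the brighter group against, on each array of the dimmer group, the higher of its dimmest signal above background and the probe's own value. The fit was tested on simulated data. Array number limits the precision.

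Collagens were assigned to classes from general knowledge. A fold and error were given for each collagen called in any pairwise comparison or above background on all arrays, and, of the processing and receptor list, for the 3 largest called differences from NC and for SERPINH1, P4HB, LOX, ITGA2 and DDR1. The members and lists were chosen with earlier results of these data known. Same-numbered arrays did not deviate together from their group means (correlations -0.106 to 0.034), so no pairing was used. Alternatives covered background correction, normalization, detection filter, floor, probe choice, arrays in the fit, replicate block and test. The slide could not be a block, since there was 1 slide.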

Additional observations from a re-analysis of the deposited data

How the results depend on the processing

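The 23 calls among the collagens in the 4 pairwise comparisons were recomputed under up to 21 alternatives, and 383 of 479 values kept the call, 96 lost it and 0 changed direction. The values deposited by the authors, the median of kept probes as the centre, outlier spots kept and every probe counted changed no call among these 23. Counts of called collagens for miR-210-3p against NC were 6 with an eBayes trend, 5 with normexp, 4 with a floor or with probes above background on all 8 arrays, and 1 without a detection filter. Without that filter miR-629-3p against NC gave 16, 2 higher and 14 lower, and miR-629-3p against miR-210-3p gave 6. Genes never above background enter the fit without the filter. Over the probes above background on no array, the median log2 difference of miR-629-3p from NC was -0.75. Its part in the added lower calls was not tested, so they do not show that more collagens differ. For miR-874-3p against NC, 1 collagen was called with normexp and with the trend. The processing and receptor genes for miR-629-3p gave 18 with the trend, 17 with normexp and 6 from only the groups compared, and for miR-210-3p 10, 8 and 1, with 7 under the floor and 0 without a filter. For miR-874-3p they gave 1 with the trend, normexp, quantile normalization, the floor or probes on all 8 arrays.

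With the replicate block, collagens for miR-210-3p against NC numbered 1 and the processing and receptor genes for miR-629-3p 6. The block ended the calls of COL5A2 (adjusted p = 0.0746) and COL12A1 (0.057) with miR-629-3p against NC, of COL13A1 with miR-210-3p against NC (0.067) and of COL24A1 between these mimics (0.0656), and changed the other collagen counts by less than 1.5 times. The plain t-test, adjusted, called 0 collagens for miR-629-3p and for miR-210-3p against NC, 4 for miR-629-3p against miR-210-3p, and 0 processing and receptor genes for miR-629-3p or miR-210-3p. The unadjusted p with 2-fold gave 5 collagens for miR-629-3p against NC, 6 for miR-629-3p against miR-210-3p, and, among the processing and receptor genes, 3 for miR-629-3p but 1 each for the other mimics. For 19 of the 23 calls the t-test ended the call, and it had 2 residual degrees of freedom a comparison.

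Leaving out 1 array gave 4 to 11 collagens for miR-629-3p against NC, 1 to 6 for miR-210-3p, 0 to 0 for miR-874-3p, 5 to 12 for miR-629-3p against miR-210-3p, and 5 to 15 in the F test. The processing and receptor genes ranged over 3 to 13, 0 to 8 and 0 to 2. An array left alone in its group was assumed to vary like the others. Some alternative called 12 differences that were not called. Against NC with miR-210-3p these were COL16A1 in 8 alternatives (adjusted p 0.013 to 0.0488), COL4A1 in 7 (0.016 to 0.0473), COL5A2 in 4, COL1A1 in 3 and COL8A1 in 2. The 3 for COL1A1 include the fits that left out a miR-210-3p array and with it the spread of that group. Against NC they were also COL9A3 in 5 (0.0165 to 0.0434) and COL4A5 in 3 with miR-629-3p, and COL13A1 in 2 with miR-874-3p. Between miR-629-3p and miR-210-3p they were COL27A1 in 4, COL4A6 and COL8A1 in 2 each and COL10A1 in 1. The cause of these changes was not tested, except that fewer arrays or more genes enter some fits. Dim genes are limited by signal over background, and the 2 arrays a group limit all values.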
